A study of Mus musculus with 4 samples.

Results

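The 10 genes described here carry the core of prostaglandin and leukotriene synthesis together with the cAMP-coupled receptors of prostaglandin E2 (PGE2), and were followed in tumor-associated macrophages (TAMs) from mice that drank propranolol. They were taken by symbol from the 54146 genes of the count matrix through the GENCODE M21 annotation (Pla2g4a, Ptgs1, Ptgs2, Ptges, Hpgds, Alox5, Alox5ap, Ltc4s, Ptger2 and Ptger4). All 10 were found, and all 10 were among the 14688 genes with enough counts to be tested. The question was what oral propranolol, a nonselective beta blocker, does to macrophage gene expression inside a tumor, and 2 libraries of poly(A) RNA were made per group. The tumors came from MCA205, a mouse fibrosarcoma line whose cells were injected under the skin of the flank of female C57BL/6 mice of 8 to 16 weeks of age. Propranolol hydrochloride at 0.5 g/L was given in the drinking water from the day of tumor cell injection. The control libraries are labelled vehicle. CD45+ cells were first enriched on magnetic beads and live CD11b+ F4/80+ cells were then sorted, so both groups carry the same tumor and passed the same gate, and the groups differ by the drinking water alone as far as the labels say. The libraries are called biological replicates, but the labels do not say whether each came from 1 mouse or from a pool, so the p-values measure only the spread between these libraries.

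Eicosanoids are short-lived lipid mediators made from arachidonic acid, which phospholipases release from membranes. Cyclooxygenases turn it into prostaglandin H2, from which terminal synthases make PGE2, prostaglandin D2, prostacyclin and thromboxane, while 5-lipoxygenase and its helper protein turn it into leukotriene A4, from which leukotriene B4 and the cysteinyl leukotrienes arise. Macrophages are a known source of both families, and PGE2 acts back on myeloid cells through receptors that raise cAMP, the same second messenger that beta-adrenergic receptors raise.

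The libraries held 13798249 and 23018142 counted fragments in the control group and 39818103 and 16424081 in the propranolol group. Levels of a gene are given below in CPM (counts scaled to a library of fixed size) on library sizes scaled by the trimmed mean of M-values (TMM), which serves comparison between groups, and in TPM, which is divided by exon length and then scaled to a fixed total without TMM, and serves comparison between genes. The gate was checked against 10 macrophage markers, which summed to 19637, 18761, 24627 and 22386 CPM in the 4 libraries in the same order. Lyz2, the lysozyme of myeloid cells, was their most abundant gene at 5889, 5226, 7569 and 5961 CPM. None of the 10 markers was at 0, and the data did not go against the labelled cell type.

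The promoters of 4 members are shown. Alox5 and Ltc4s were called higher both with and without a correction for base composition, while the calls of Ptgs2 and Hpgds depended on it. Ptger2, called higher in both fits, and Ptger4, called only after the correction, are not shown. Each is the 300 bases from 250 before to 50 after the transcription start in RefSeq on GRCm38.p6, written on the strand of the gene, at chr6:116461129-116461428 (minus strand) for Alox5, chr11:50238483-50238782 (minus) for Ltc4s, chr1:150099781-150100080 (plus) for Ptgs2 and chr6:65144681-65144980 (minus) for Hpgds. Capitals mark matches, on either strand, to the GC box, which reads GGGCGG, the core of the cAMP response element, which reads TGACG, and the core bound by ETS factors such as PU.1, which reads GAGGAA, with overlapping matches counted apart.
Alox5: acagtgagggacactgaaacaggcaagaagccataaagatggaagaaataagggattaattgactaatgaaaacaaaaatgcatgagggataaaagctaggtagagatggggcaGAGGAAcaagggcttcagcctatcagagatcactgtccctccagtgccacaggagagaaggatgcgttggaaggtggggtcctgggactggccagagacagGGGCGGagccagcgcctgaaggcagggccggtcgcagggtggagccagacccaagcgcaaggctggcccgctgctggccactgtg
Ltc4s: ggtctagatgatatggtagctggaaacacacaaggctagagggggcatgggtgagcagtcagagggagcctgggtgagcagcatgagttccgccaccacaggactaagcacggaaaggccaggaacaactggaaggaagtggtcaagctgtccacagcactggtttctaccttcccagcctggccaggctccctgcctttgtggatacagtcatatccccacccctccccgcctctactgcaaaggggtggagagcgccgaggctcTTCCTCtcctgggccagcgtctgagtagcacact
Ptgs2: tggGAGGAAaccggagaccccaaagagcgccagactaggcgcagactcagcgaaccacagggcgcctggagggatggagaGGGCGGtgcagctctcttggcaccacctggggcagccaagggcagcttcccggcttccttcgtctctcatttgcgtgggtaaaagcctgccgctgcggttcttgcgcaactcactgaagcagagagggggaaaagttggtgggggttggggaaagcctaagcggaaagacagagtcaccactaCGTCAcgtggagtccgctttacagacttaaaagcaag
Hpgds: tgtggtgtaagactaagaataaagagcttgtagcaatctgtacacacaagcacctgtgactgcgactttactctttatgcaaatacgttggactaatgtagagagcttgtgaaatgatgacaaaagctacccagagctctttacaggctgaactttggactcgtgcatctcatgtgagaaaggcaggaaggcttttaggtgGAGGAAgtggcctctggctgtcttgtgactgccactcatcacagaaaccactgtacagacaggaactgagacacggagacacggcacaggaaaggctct
Each of the 4 windows held 1 match to the ETS core, a motif present in 28.3% of all 32851 RefSeq windows of this length. The GC box, present in 35.7% of all windows, was found in those of Alox5, at position -35 from the start, and Ptgs2, at position -170. The core of the cAMP response element, present in 20.8% of all windows, was found only in that of Ptgs2 among these 4, at position 13. The letters of the TATA box, TATAAA, in 13.6% of all windows, were in none of the 4, and the palindrome TGACGTCA, in 1.79% of all windows, was in none of the windows of the 9 members that had one (Alox5ap was not in the table). Of the windows not shown, that of Ptger4 held 4 matches to the GC box and none to the ETS core, and that of Ptger2 held neither. Among members not called in either fit, the window of Ptgs1 held 1 match to the ETS core and none to the GC box. That of Ptges held 1 match to the ETS core and 2 to the GC box. The windows of Pla2g4a held neither, and 1 of them held TATAAA at position -200. The RefSeq starts of Alox5 and Ptgs2 coincided with the 5′ end of the gene in GENCODE, and those of Ltc4s and Hpgds lay 84 and 178 bases inside it. The matches are letters only, and binding was not measured.

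A gene was called changed when the edgeR quasi-likelihood test gave an adjusted p below 0.05 over all tested genes and the fold was over 1.5. Of the 14688 tested genes, 27.8% were called, 12.2% higher and 15.6% lower in TAMs from propranolol treated mice. Of the 10 eicosanoid genes, 4 were called higher (Alox5ap, Alox5, Ltc4s and Ptger2), 1 was called lower (Hpgds) and 5 were not called (Pla2g4a, Ptgs1, Ptgs2, Ptges and Ptger4). Their median log2 fold change was 0.33, beside -0.02 over all tested genes. In 9 of the 10 the CPM of the 2 groups did not overlap, as was so for 72.6% of all tested genes. An exact permutation test of 2 against 2 libraries cannot go below p = 0.333, so the calls rest on the spread shared across genes. In bulk RNA of a sorted population, a change in the number of cells that express a gene and a change of its RNA per cell cannot be told apart.

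Fold changes in this comparison followed the base composition of the genes. Over the 14681 tested genes with a known GC content of the longest transcript, the Spearman correlation of the log2 fold change with GC content was 0.58, a description across genes of the same 4 libraries, which are not independent replicates. In the tenth of genes with the lowest GC content (30.8% to 41.2%) the median log2 fold change was -0.94, with 3 genes called higher and 885 lower, and in the tenth with the highest (57.7% to 75.5%) it was 0.46, with 482 higher and 76 lower. The comparison was therefore also fitted with each library's trend over GC content removed, after which the correlation was 0.06 and 12.1% of genes were called, 7.08% higher and 5.05% lower. The same correction gave 6 members called higher (Alox5ap, Alox5, Ltc4s, Ptger2, Ptgs2 and Ptger4) and 0 called lower. Their median was then 0.72 on the log2 scale, beside 0.07 over all genes. Both values are given for each member. The cause of the trend was not tested.

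**Figure D1:**
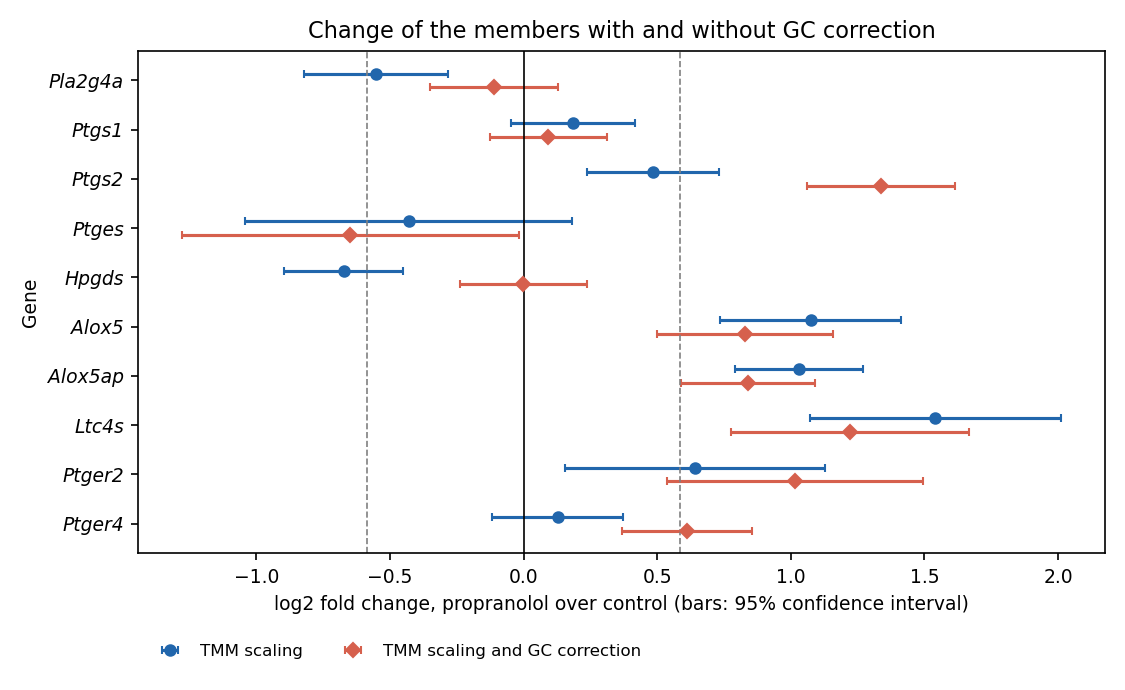
The log2 fold change of each of the 10 genes (x axis, propranolol over control) is plotted by gene (y axis), as a circle for TMM scaling and a diamond for TMM scaling with GC correction, with bars for the 95% confidence interval and dashed lines at 1.5-fold. Alox5, Alox5ap and Ltc4s lie to the right of the dashed line in both fits, while Hpgds moves from -0.67 to -0.00 and Ptgs2 from 0.48 to 1.34.

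**Figure D2:**
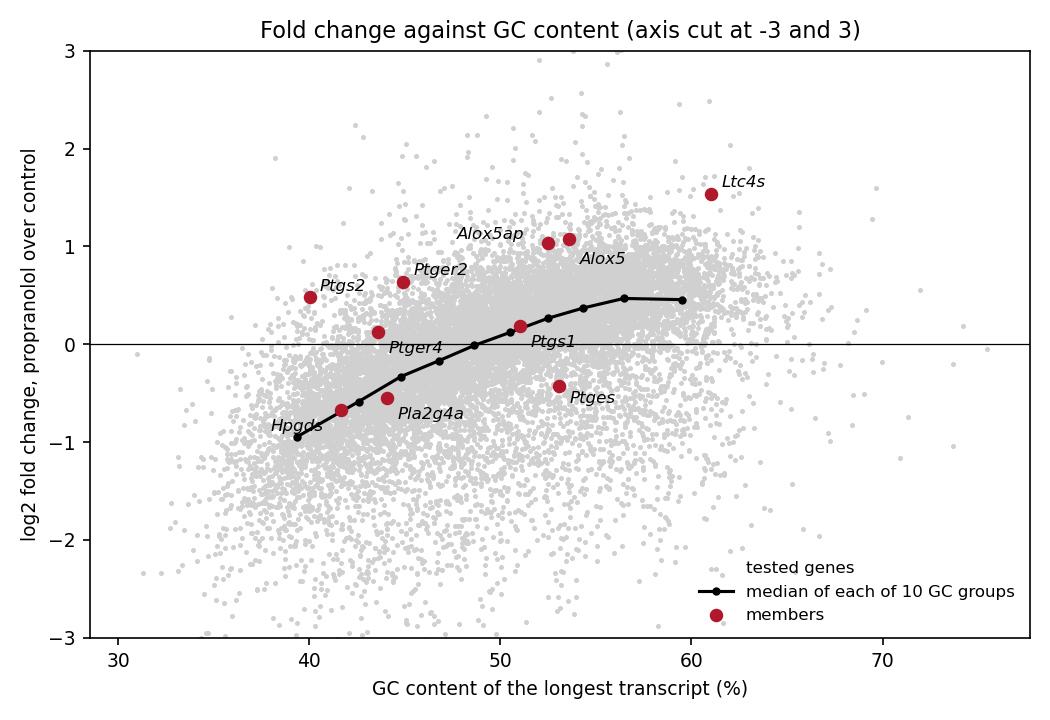
The log2 fold change (y axis, propranolol over control, axis limited to -3 and 3) of each tested gene (grey points) and each member (red points) is plotted against GC content of the longest transcript (x axis, %), with a black line for the median of 10 equal groups of genes. Hpgds, at 41.7% GC, lies on the median line, while Ptgs2, at 40.02%, lies well above it.

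Alox5, Alox5ap and Ltc4s, the 3 members of the leukotriene route, rose in TAMs from propranolol treated mice, by 2.04-fold to 2.91-fold, and were called higher both with and without GC correction. Alox5, which encodes 5-lipoxygenase, stood at 28.5 and 25.4 CPM in control TAMs and at 49.1 and 64.7 CPM in TAMs from propranolol treated mice. Both propranolol libraries were above both control libraries, with a wider gap between the propranolol libraries than between the control libraries. Alox5 differed by a log2 fold change of 1.07 ± 0.15 (SE, n = 2 per group, edgeR quasi-likelihood test, adjusted p = 0.000524), and 0.83 ± 0.15 after GC correction (edgeR, adjusted p = 0.00493).

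Alox5ap encodes FLAP, the membrane protein that presents arachidonic acid to 5-lipoxygenase, and was the most abundant of the 10 genes. It was at 312 and 265 CPM in control TAMs and at 611 and 568 CPM in TAMs from propranolol treated mice, or 289 ± 33.2 and 590 ± 30.1 CPM (mean ± SD, n = 2). The gap between the groups was several times the gap between replicates. For Alox5ap the log2 fold change was 1.03 ± 0.11 (SE, edgeR, adjusted p = 0.000147) and 0.84 ± 0.11 after GC correction (edgeR, adjusted p = 0.00146).

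Ltc4s encodes leukotriene C4 synthase, which joins leukotriene A4 to glutathione, and had the largest fold change of the 10 members without GC correction. It had 84, 117, 503 and 246 counts in the 4 libraries (control first), which are 5.66, 4.66, 13.8 and 16.1 CPM. The lowest propranolol library was well above the highest control library. The groups differed by a log2 fold change of 1.54 ± 0.21 (SE, edgeR, adjusted p = 0.000451) and 1.22 ± 0.20 after GC correction (edgeR, adjusted p = 0.00337). It is the most GC-rich of the 10 genes, at 61.0%.

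The stated counting parameters set no strand option and none for fragments that overlap more than 1 gene, so fragments in exon bases shared by genes may not have been counted. Opposite-strand genes overlap 26.4% of the exon bases of Ltc4s and 13.3% of those of Alox5ap. The gene opposite Ltc4s, Gm26542, had 4, 15, 35 and 19 counts in the 4 libraries, and the gene opposite Alox5ap, Gm19719, had 27, 82, 135 and 81. Alox5 had no overlapping exon.

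Of the prostaglandin genes, Hpgds fell, Ptgs2 and Pla2g4a differed by less than 1.5-fold, and Ptgs1 and Ptges did not pass the test. After GC correction Hpgds was no longer called and Ptgs2 was called higher. Pla2g4a encodes the cytosolic phospholipase A2 that releases arachidonic acid. It stood at 63.7 and 64.5 CPM in control TAMs and at 47.3 and 39.8 CPM in TAMs from propranolol treated mice, with no overlap of the groups. Its log2 fold change was -0.55 ± 0.12 (SE, edgeR, adjusted p = 0.0049), under the 1.5-fold limit, and -0.11 ± 0.11 after GC correction (edgeR, adjusted p = 0.49). Without propranolol replicate 1 it was -0.68 and called lower.

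The cyclooxygenase genes, whose products make prostaglandin H2, are given next. Ptgs1, the constitutive form, was at 132 and 140 CPM in control libraries and at 146 and 165 CPM in propranolol libraries. These ranges lie next to each other, and the log2 fold change of 0.19 (95% confidence interval -0.05 to 0.42, edgeR, adjusted p = 0.178) was 0.09 after GC correction (edgeR, adjusted p = 0.534). Ptgs2, the inducible form, was at 84.4 and 75.3 CPM in control TAMs and at 106 and 118 CPM after propranolol, with no overlap of the groups. Its difference was 0.48 ± 0.11 on the log2 scale (SE, edgeR, adjusted p = 0.00614), just under the 1.5-fold limit, 0.62 and called higher without control replicate 1, and 1.34 ± 0.12 after GC correction (edgeR, adjusted p = 0.000431), where it was called higher. Ptgs2 is the most AT-rich member, at 40.02% GC, and its corrected value was the largest of the 10. Both fits gave a positive difference, but the size and the call depended on the correction.

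Of the 2 terminal synthases among the members, Hpgds was called lower and Ptges was not called. Hpgds encodes the hematopoietic prostaglandin D synthase and stood at 135 and 140 CPM in control TAMs and 83.4 and 89.5 CPM in TAMs from propranolol treated mice. The replicates lay close together and the groups far apart, with a log2 fold change of -0.67 ± 0.10 (SE, edgeR, adjusted p = 0.000669). At 41.7% GC, however, its fall was that of genes of similar composition, and after GC correction the log2 fold change was -0.00 (95% confidence interval -0.24 to 0.24, edgeR, adjusted p = 0.995).

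Ptges encodes the inducible microsomal PGE synthase and was the only member whose groups overlapped on the CPM scale. It was at 10.7 CPM in control replicate 1, 6.58 CPM in control replicate 2, and 6.88 and 5.7 CPM in the propranolol libraries, from 158, 165, 250 and 87 counts. Control replicate 1 alone stood high. The log2 fold change was -0.43 ± 0.27 (SE, edgeR, adjusted p = 0.236), 0.0011 without control replicate 1 (edgeR, adjusted p = 0.998) and -0.73 without control replicate 2 (edgeR, adjusted p = 0.0303). Control replicate 1 also had the most RNA of fibroblast and tumor cell genes, whose 7 markers summed to 2767 CPM there and to 1036, 618 and 676 CPM in the other libraries. Their part in the Ptges value was not tested.

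Of the cAMP-coupled PGE2 receptors, Ptger2 was called higher and Ptger4 was not, although the call of Ptger2 had the highest adjusted p of the 5. Ptger2, which encodes EP2, had 84, 152, 324 and 144 counts, or 5.66, 6.06, 8.91 and 9.43 CPM. The groups did not overlap. EP2 mRNA rose by a log2 fold change of 0.64 ± 0.22 (SE, edgeR, adjusted p = 0.0378), and by 1.02 ± 0.21 after GC correction (edgeR, adjusted p = 0.00996). Without GC correction the call was lost when any of the 4 libraries was left out (edgeR, adjusted p from 0.0521 to 0.102, with log2 fold changes of 0.63 to 0.71) with upper-quartile scaling (edgeR, adjusted p = 0.0538) and with DESeq2 (adjusted p = 0.0719).

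Ptger4 encodes EP4. It was at 61.6 and 70.0 CPM in control TAMs and at 72.4 and 71.6 CPM in TAMs from propranolol treated mice, with 1 control library close to both propranolol libraries. Its log2 fold change was 0.13 (95% confidence interval -0.12 to 0.37, edgeR, adjusted p = 0.381), and 0.61 ± 0.11 after GC correction (edgeR, adjusted p = 0.005), which is just past 1.5-fold. Opposite-strand genes overlap 16.5% of the exon bases of Ptger4, and one of them, Ttc33, had 274, 406, 463 and 185 counts beside the 913, 1757, 2633 and 1093 of Ptger4.

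On the TPM scale, which allows levels of different genes to be set side by side, the 10 genes spanned a wide range. Alox5ap was highest, at 720 and 629 TPM in control and 1187 and 1149 TPM in propranolol libraries, and its mean over the 4 libraries was 8.04 times that of Ptgs1, the next gene. Ptgs1 (104 to 122 TPM) was 1.81 times Ptgs2 (55.3 to 73.9 TPM) in mean level, with ranges that did not overlap. The ranges of Ptgs2 and Hpgds (35.8 to 73.6 TPM) did overlap, and so did those of Ptger4 with Alox5, Alox5 with Ltc4s, and Ltc4s with Pla2g4a, over all 4 libraries. In each of these 4 pairs the order was the same in both control libraries and turned in both propranolol libraries. Pla2g4a, for example, stood above Ltc4s in control TAMs (32.6 and 34.0 against 18.3 and 15.5 TPM). After propranolol it stood below Ltc4s (20.4 and 17.9 against 37.6 and 45.6 TPM). The turn of Alox5 and Ltc4s was narrow in propranolol replicate 2 (45.2 against 45.6 TPM). These turns rest on values without GC correction, and whether they hold after it was not tested. Ptges (4.16 to 8.87 TPM) and Ptger2 (3.57 to 5.21 TPM) were lowest, overlapped each other and lay apart from the rest.

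Ratios of TPM within a library set the mRNA levels of pairs of these genes side by side, and do not measure the activity of a route. Hpgds was 3.77 and 4.75 times Ltc4s in control TAMs and 0.952 and 0.877 times Ltc4s after propranolol. The leukotriene C4 synthase gene, which was well below the prostaglandin D synthase gene in control TAMs, was at least at its level in TAMs from propranolol treated mice. This crossing depends on values without GC correction: the corrected changes, -0.00 for Hpgds and 1.22 for Ltc4s on the log2 scale, are too small to bring the control ratios down to 1. Ptgs1 over Ptgs2 was 1.85 and 2.20 in control and 1.63 and 1.65 in propranolol libraries. Ptger4 over Ptger2 was 8.49 and 9.03 in control and 6.35 and 5.93 in propranolol libraries, so EP4 mRNA was more abundant than EP2 mRNA in every library. Alox5ap over Alox5 was 31.7, 30.2, 35.9 and 25.4 in the 4 libraries, with overlapping groups. These ratios are descriptions with no test, and GC content bears on each of them as it does on the fold changes.

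**Figure D3:**
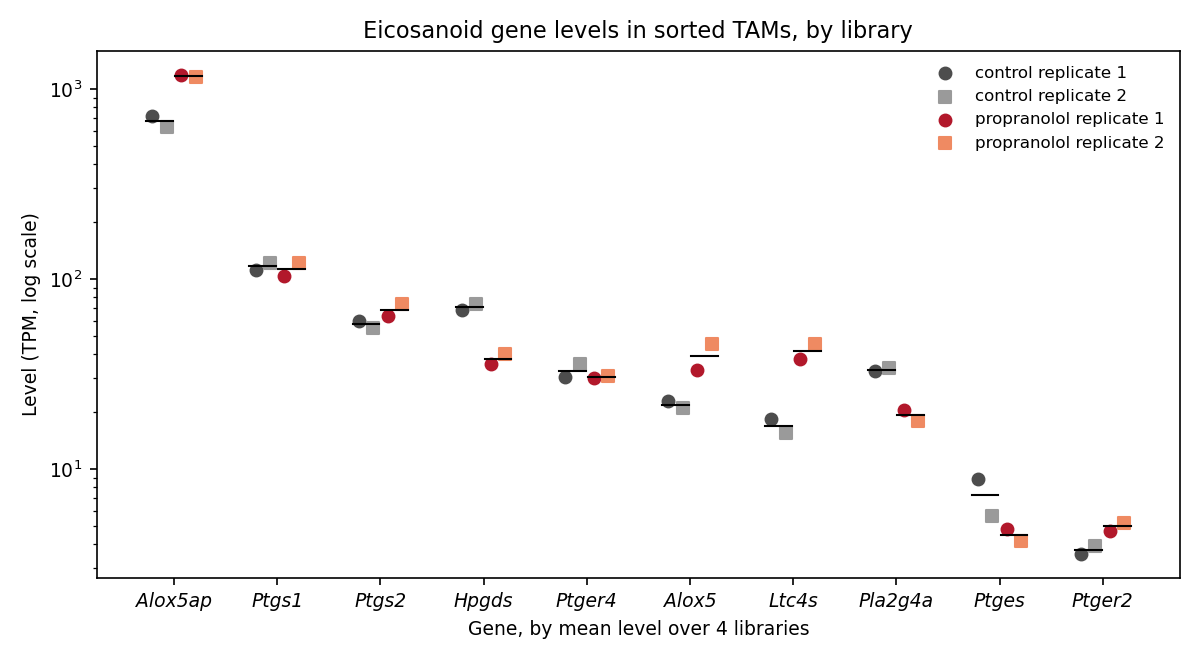
The level of each gene in TPM (y axis, log scale) is plotted for each of the 4 libraries (points) with the mean of each group (short lines), ordered by the mean over all libraries (x axis). Alox5ap stands far above the rest, and Alox5 and Ltc4s are higher in both propranolol libraries than in both control libraries. The TPM scale shifts the median log2 fold change of all tested genes by -0.23 against TMM scaling, so Ptgs1 and Ptger4, which were not called, do not separate by group here. Ptges, which was not called and overlapped in CPM, does separate here. It was at 8.87 and 5.64 TPM in control and 4.83 and 4.16 TPM in propranolol libraries.

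Of 54 further genes of eicosanoid metabolism and signaling, 34 were tested, of which 9 were called higher, 4 lower and 21 were not called, beside 27.8% called among all tested genes. Their median log2 fold change was 0.37. After GC correction 6 were called higher and 2 lower, beside 7.08% and 5.05% of all genes in that fit, with a median of 0.39 beside 0.07. A further 20 genes had too few counts, and 4 of these, Pla2g2c, Ptgds, Alox12b and Ptgdr, had none in any library. The list of 54 genes was written after changed genes of these data, Ltc4s and Ltb4r1 among them, had been read.

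Of the 4 leukotriene receptors, 1 was called higher and 2 lower, and neither lower call held after GC correction. Ltb4r1, which encodes the high-affinity receptor of leukotriene B4, was at 19.2 and 21.7 CPM in control TAMs and at 68.2 and 47.4 CPM in TAMs from propranolol treated mice, a log2 fold change of 1.503 ± 0.17 (SE, edgeR, adjusted p = 0.000217) and of 1.16 after GC correction (edgeR, adjusted p = 0.00307). The other calls were the cysteinyl leukotriene receptor genes. Cysltr2 was at 5.39, 7.85, 3.03 and 2.16 CPM, with a log2 fold change of -1.33 ± 0.32 (SE, edgeR, adjusted p = 0.00801), and of -0.78 after GC correction (edgeR, adjusted p = 0.101), where it was not called. Cysltr1 was at 93.3 and 71.3 CPM in control and 49.2 and 38.6 CPM in propranolol libraries, a log2 fold change of -0.89 ± 0.16 (SE, edgeR, adjusted p = 0.00155), which turned to 0.39 after GC correction (edgeR, adjusted p = 0.0747). At 36.3% GC it is more AT-rich than any of the 10 members. Ltb4r2, the low-affinity leukotriene B4 receptor gene, completes the list with 8, 21, 41 and 24 counts and was not called.

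Of 7 genes of transport and inactivation, all 7 were tested and 2, Abcc1 and Cyp4f18, were called higher. Abcc1, which encodes the MRP1 pump that exports leukotriene C4, was at 119 and 122 CPM in control and 236 and 244 CPM in propranolol libraries, and its log2 fold change was 0.99 ± 0.10 (SE, edgeR, adjusted p = 0.000112) and 0.89 after GC correction (edgeR, adjusted p = 0.000516). Abcc1 was thus called higher in both fits. Cyp4f18, a cytochrome P450 that inactivates leukotriene B4, rose by 0.71 on the log2 scale (edgeR, adjusted p = 0.000388) but by 0.38, under the 1.5-fold limit, after GC correction.

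Of the 13 further lipoxygenases and leukotriene enzymes, 7 were tested, 2 were called higher (Ggt5 and Mgst3) and 1 lower (Mgst2). Ggt5, a gamma-glutamyl transferase that converts leukotriene C4 to D4, was at 18.6, 17.7, 28.6 and 42.6 CPM, with a log2 fold change of 0.96 (edgeR, adjusted p = 0.00258) and 0.84 after GC correction (edgeR, adjusted p = 0.0118). Mgst2 and Mgst3 encode microsomal glutathione transferases of the family of Ltc4s. Mgst2 had 45, 98, 41 and 16 counts and a log2 fold change of -1.67 (edgeR, adjusted p = 0.00821), and Mgst3 had 119, 184, 498 and 180 counts and a log2 fold change of 0.74 (edgeR, adjusted p = 0.0129). Mgst2 therefore went the opposite way from Ltc4s, and both calls held after GC correction, although that of Mgst3 was lost without propranolol replicate 1 (log2 fold change 0.62, edgeR, adjusted p = 0.0683). Lta4h, which makes leukotriene B4 from leukotriene A4 and was the most abundant of these 13 genes on the TPM scale, was at 74.6, 69.7, 79.3 and 72.9 CPM and was not called (log2 fold change 0.08, 95% confidence interval -0.16 to 0.32, and 0.46, under the 1.5-fold limit, after GC correction).

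Of 7 further prostanoid synthases, 6 were tested and 2 were called higher. Ptges2, a membrane-associated PGE synthase, was at 12.8, 11.9, 27.5 and 20.2 CPM, with a log2 fold change of 0.96 (edgeR, adjusted p = 0.00217) and 0.68 after GC correction (edgeR, adjusted p = 0.027). Fam213b, which encodes a prostaglandin F synthase and was the most abundant of these genes on the TPM scale, was at 34.2, 34.3, 58.0 and 58.4 CPM, with a log2 fold change of 0.76 (edgeR, adjusted p = 0.000624) and 0.42, not called, after GC correction. Of 16 further phospholipases, 6 were tested and 1 was called higher: Pla2g12a, a secreted phospholipase A2 and the most abundant of them on the TPM scale, at 8.97, 6.54, 12.0 and 11.5 CPM (log2 fold change 0.61, edgeR, adjusted p = 0.0433). Its call was lost without control replicate 2 (0.41 on the log2 scale), propranolol replicate 1 (0.58) or propranolol replicate 2 (0.68), and with DESeq2 (adjusted p = 0.0678) or upper-quartile scaling (edgeR, adjusted p = 0.062), and held after GC correction (0.99).

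Of 7 further prostanoid receptors, 4 were tested. Ptgir, which encodes the prostacyclin receptor and was the most abundant of them on the TPM scale, was at 5.6, 6.54, 11.5 and 8.38 CPM, with a log2 fold change of 0.72 (edgeR, adjusted p = 0.034) that was 0.44, not called, after GC correction. The call was also lost without control replicate 1 (0.67) or propranolol replicate 1 (0.46). Ptgfr, which encodes the prostaglandin F receptor, had 46, 38, 8 and 4 counts and a log2 fold change of -3.24 ± 0.65 (SE, edgeR, adjusted p = 0.00294), and of -2.49 after GC correction (edgeR, adjusted p = 0.0224). Without control replicate 1 it was -2.60 (edgeR, adjusted p = 0.033). Like Ptges, it was highest in control replicate 1, the library with the most fibroblast and tumor cell RNA, and the part of that RNA in the result was not tested.

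**Figure D4:**
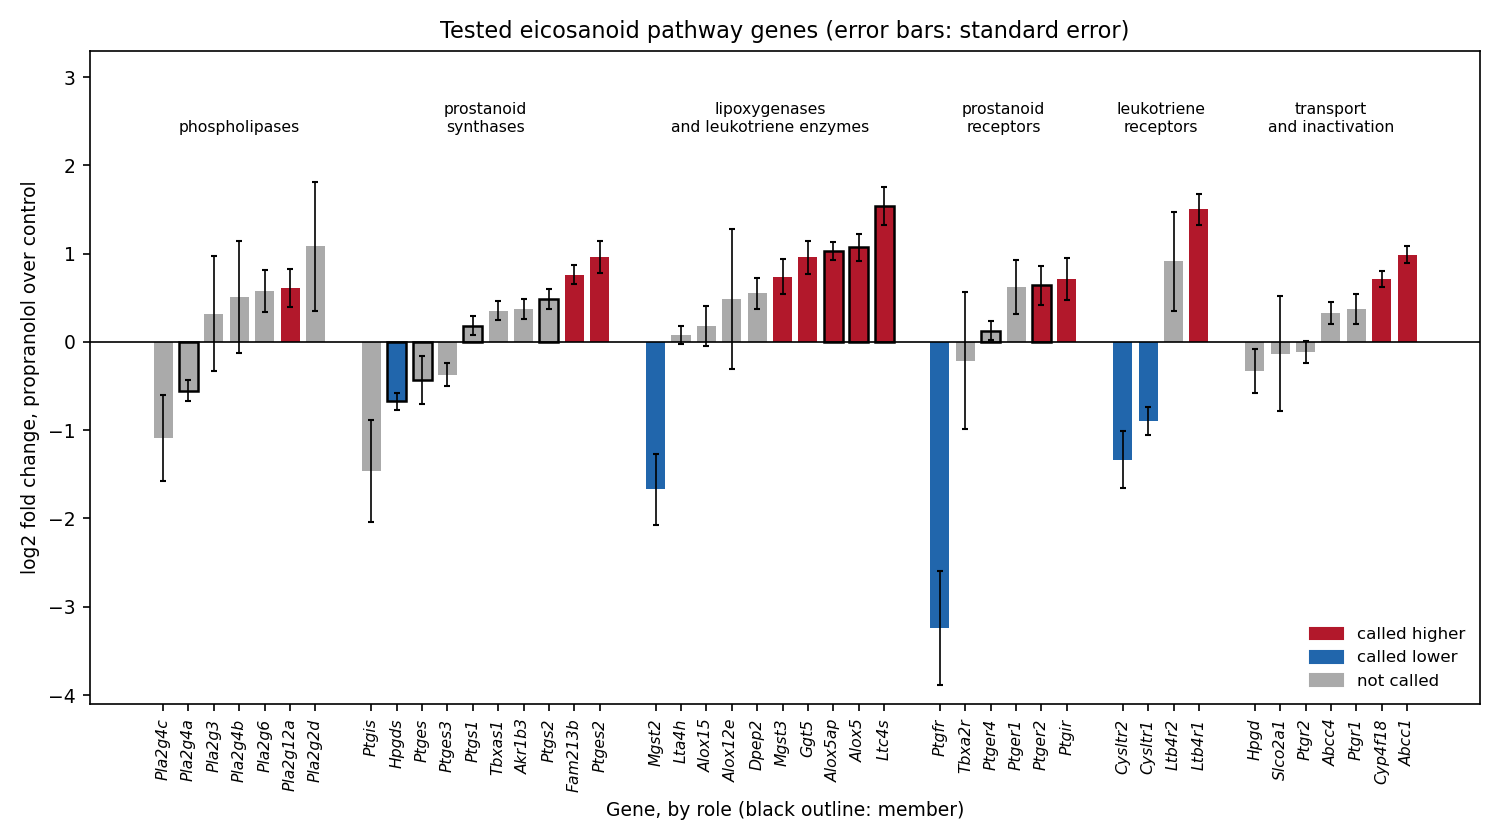
The log2 fold change (y axis, propranolol over control, without GC correction) of each tested gene of the pathway is drawn as a bar, grouped by role (x axis), with the standard error as error bar, red for called higher, blue for called lower, grey for not called and a black outline for the 10 members. Ltc4s has the tallest bar, at 1.54, and Ltb4r1 is next to it in height at 1.503, while Ptgfr is lowest at -3.24.

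Markers of other cells that make or sense eicosanoids were measured in the same libraries, and several moved with the leukotriene genes. The 13 neutrophil markers summed to 182 and 199 CPM in the control and 358 and 383 CPM in the propranolol libraries. This sum does not show which cells the RNA came from. Of the 8 markers tested, 5 were called higher and 0 lower, beside 12.2% and 15.6% of all tested genes. Csf3r, the most abundant, was at 97.0, 130, 154 and 180 CPM, and none of the 13 was at 0 in all libraries. Ly6g, chosen for mention after its values were seen because it defines neutrophils, had 0, 2, 17 and 8 counts. The 5 called higher, named likewise, were S100a9 (19.2, 21.05, 83.8 and 82.4 CPM, log2 fold change 2.04), S100a8 (1.33), Cxcr2 (1.31), Mmp9 (1.09) and Retnlg (0.79), and after GC correction Mmp8 was called in place of Mmp9. Of the genes that were not called or not tested, Ngp had 7, 7, 15 and 3 counts, Camp 0, 6, 1 and 1, and Mpo 2, 2, 9 and 0, and Ltf was not called (log2 fold change -0.33). The 12 mast cell and basophil markers summed to 29.7, 29.98, 76.7 and 101 CPM, most of it from Hdc, the histidine decarboxylase gene that macrophages and neutrophils can also express, at 18.3, 19.3, 71.9 and 94.8 CPM. Fcer1a, Ms4a2 and Mcpt8, which define these cells, were at 0 in all 4 libraries. Of the 3 tested genes, 2, Kit and Gata2, named after their values were seen, were lower. The remaining genes of the list, named likewise, were not tested. Tpsb2 had 3, 3, 12 and 12 counts, Cpa3 0, 0, 1 and 2, and Cma1 1, 0, 2 and 3. Tpsab1 had 1, 1, 3 and 0 counts, Mcpt4 3, 1, 6 and 4, and Prss34 0, 0, 4 and 0. The 8 eosinophil markers summed to 7.28, 6.42, 7.37 and 6.48 CPM with 0 of 3 tested called, Siglecf being the most abundant (2.90, 3.07, 2.89 and 4.06 CPM) and Epx, Prg3 and Ear1 being at 0. The sort kept F4/80+ cells, and the part of neutrophil RNA in the rise of Alox5, Alox5ap, Ltc4s and Ltb4r1 was not tested.

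The 8 platelet markers, of cells that also carry Ptgs1, summed to 161, 146, 293 and 266 CPM, nearly all from Pf4 (155, 141, 284 and 251 CPM), which macrophages can express. Of the 5 tested, 2 were called higher, Pf4 and Ppbp. Ppbp, a platelet chemokine gene named after its values were seen, was at 1.62, 1.75, 6.19 and 10.1 CPM (log2 fold change 2.25, edgeR, adjusted p = 0.000728). Gp1bb was at 0 in all libraries, but 92.9% of its exon bases overlap other genes, so its reads may not have been counted. Itga2b (2.23, 2.03, 1.24 and 1.77 CPM) and Gp1ba (0.607, 0.518, 0.385 and 0.917 CPM), which define platelets, were low and not called. Treml1, also not called, was at 0.539, 1.47, 1.02 and 2.42 CPM. Its log2 fold change was 0.67, and those of Itga2b and Gp1ba were -0.52 and 0.13. Gp9 and Gp6 were not tested, with 9, 0, 1 and 5 counts and 1, 1, 2 and 0 counts. Of the 7 fibroblast and tumor cell markers, 5 were called lower, and Col3a1, the most abundant, was at 1294, 423, 212 and 225 CPM. T and NK cell markers were lower too, with 5 of 6 T cell genes called lower (sum of 186, 219, 96.8 and 55.3 CPM, led by Cd8a at 71.0, 86.8, 29.4 and 13.4 CPM) and 4 of 4 NK cell genes called lower (sum of 40.4, 42.1, 11.9 and 5.37 CPM, led by Klrd1 at 22.9, 23.0, 3.25 and 1.18 CPM). Their part in the results for the 10 genes was not tested.

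After GC correction the counts of called genes of the neutrophil, mast cell and basophil, platelet, fibroblast and tumor cell, and T cell lists were as given, and those of the NK cell list were 3 lower. The other lists are given with their leading genes, beside 27.8% of all genes called, or 12.1% after GC correction. Of the 6 dendritic cell genes 3 were called lower, or 1 after GC correction (sum of 32.8, 32.1, 20.2 and 17.7 CPM, led by Ccr7 at 8.16, 7.17, 6.13 and 7.40 CPM). Of the 6 monocyte genes 2 were called higher, or 3 after GC correction (sum of 639, 548, 591 and 494 CPM, led by Ccr2 at 454, 397, 306 and 262 CPM). Of 4 tested endothelial genes 1 was called higher, or 0 after GC correction (sum of 15.7, 11.0, 18.7 and 18.9 CPM, led by Kdr at 5.06, 4.66, 8.31 and 6.75 CPM), and of 2 tested B cell genes 1 was called higher and 1 lower, or 0 after GC correction (sum of 9.91, 13.2, 20.2 and 18.7 CPM, led by Cd79b at 8.70, 11.8, 19.4 and 16.0 CPM). Of the 10 macrophage genes 1 was called higher and 0 lower.

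**Figure D5:**
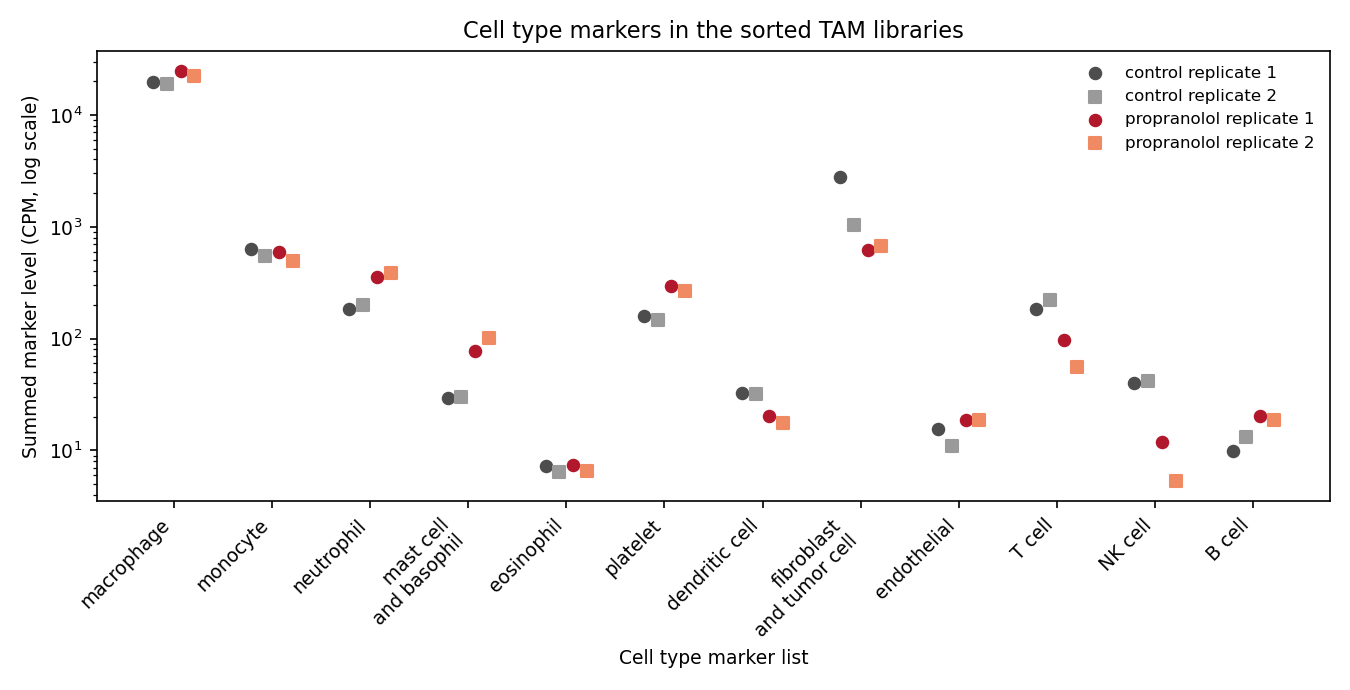
The summed level of each marker list in CPM (y axis, log scale) is plotted for each of the 4 libraries (points) by cell type (x axis). Macrophage markers lie between 18761 and 24627 CPM, far above the other lists, neutrophil markers are higher in both propranolol libraries, and fibroblast and tumor cell markers are highest in control replicate 1.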

How the data were processed

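RNA of sorted TAMs was measured in 4 libraries, 2 per group. The authors aligned reads to mm10 with STAR 2.7.1a, kept high-quality alignments with SAMtools 1.9 and deposited raw counts of fragments per GENCODE gene, made with featureCounts 1.6.4 over exons. The stated parameters (-p -t exon) set no strand option, and the annotation release is not given in the sources used here. Identifiers were named with GENCODE M21 (54079 of 54146 genes matched), and 25803 genes had no counts.

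Counts were filtered with filterByExpr (minimum count 10), scaled by TMM and tested with the quasi-likelihood test of edgeR 4.0.16 (R 4.3.3), with Benjamini-Hochberg adjustment over all 14688 tested genes. GC correction removed each library's trend over GC content (spline, 5 degrees of freedom) of the longest transcript, through offsets. TPM used union exon length. Alternatives were DESeq2 1.42.0, limma 3.58.1, other scalings, filters and thresholds, a replicate block and leaving out each library. The code was tested on simulated data. Confidence intervals and p-values cover the spread between libraries. Depth ranged from 13798249 to 39818103 counts.

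The 10 members and the pathway and marker lists were chosen with earlier results of these data known. The genes named were all members, every pathway gene called changed, the most abundant tested gene of each pathway role on the TPM scale, and of each marker list the most abundant gene and those without counts. Ltb4r2, Ly6g, S100a9, S100a8, Cxcr2, Mmp9, Mmp8, Retnlg, Ngp, Camp, Mpo, Ltf, Kit, Gata2, Tpsb2, Cpa3, Cma1, Tpsab1, Mcpt4, Prss34, Ppbp, Itga2b, Gp1ba, Treml1, Gp9 and Gp6, and the genes that overlap members, were named after their values were seen. For genes with more than 1 identifier, the one with more counts was used. Promoters came from RefSeq.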

Additional observations from a re-analysis of the deposited data

How the results depend on the processing

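Of 17 alternatives, the count of changed members (5) stayed within 1.5 times except with a test against 1.5-fold (3) and a limit of 1.5 on the log2 scale (1), and was 4 to 5 with each library left out. Further pathway genes changed (13) numbered 8 with GC correction, 3 against 1.5-fold, 3 past 1.5 on the log2 scale and 12 to 15 with a library left out. Over all genes, calls (4084) numbered 1781 with GC correction, 1987 with GC correction and replicate block, 1810 with GC and length correction, 1093 against 1.5-fold, 6204 with no fold limit and 728 past 1.5 on the log2 scale. Of the 10 level ranks, 6 held with the longest transcript, 3 on CPM and 7 to 8 with a library left out. The log2 fold change of Ptges changed sign without control replicate 1 but lay near 0 (0.0011). Ptges was called lower without control replicate 2 (log2 fold change -0.73). Cysltr1 reversed with GC correction (0.39), with the block as well (0.39), and with GC and length (0.36). Alox5ap, Alox5 and Ltc4s kept their direction throughout, with log2 fold changes of 0.84 to 1.21, 0.82 to 1.27 and 1.22 to 1.73. Pla2g4a was called lower with upper-quartile scaling (-0.61) and without propranolol replicate 1 (-0.68), and Ptgs2 was called higher without control replicate 1 (0.62). The cause was not tested. The replicate block gave 4362 calls over all genes, 5 among members and 15 in the pathway. Deviations of same-numbered libraries correlated at 0.17, and 2 pairs without a label for what the number marks are too few to show whether they are paired. Of the values of single genes under the alternatives, 337 kept direction and call, 12 gained a call, 55 lost it and 4 reversed. With 2 libraries per group, 1 library can decide a call, as it did for Ptges.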
